A study of Mus musculus with 2 samples.

Results

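The 10 genes described here, Tfrc, Slc11a1, Slc11a2, Steap3, Steap4, Fth1, Ftl1, Ncoa4, Slc40a1 and Ireb2, encode proteins of iron uptake, storage, release, export and regulation. They were taken as a list by name, with earlier results of these data known. All 10 had an assembled locus of their own in at least 1 library. Of the 14870 mouse genes that were given a locus, 14416 had a locus of their own. RNA of wild-type (WT) bone marrow cells was sequenced in 2 libraries. M was grown with M-CSF and no RANKL, and MR with both factors, the condition in which macrophage precursors differentiate into osteoclasts. M-CSF was present at 20 ng/mL for 2 days and thereafter, and MR also received 100 ng/mL RANKL, for 2 days by the labels and for 3 days by the culture method. The labels name neither the age of the mice nor the number of animals behind a library. With 1 library per condition there was no replicate check, so that each value describes these libraries and no p-value was computed. In such bulk cultures, fewer cells of a type and less RNA per cell cannot be told apart.

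Iron bound to transferrin enters the cell with the transferrin receptor, is reduced in the endosome by a STEAP metalloreductase and is carried into the cytosol by a divalent metal transporter. Surplus iron is stored in the ferritin shell, is freed again when the cargo receptor Ncoa4 takes ferritin to the lysosome, or leaves the cell through ferroportin. Iron regulatory proteins bind a hairpin in the mRNA, the iron-responsive element (IRE), when cytosolic iron is low. An IRE before the coding sequence then holds back translation, and IREs after it protect the mRNA from decay. Macrophages are known for recycling iron from aged red cells, and osteoclasts are rich in mitochondria, which use iron for heme and iron-sulfur (Fe-S) clusters.

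Members of the list carry this hairpin on both sides of the coding sequence, and the sequences of Fth1, Ftl1, Slc40a1 and Tfrc are shown. Any part of the hairpins in the TPM differences between M and MR was not tested. The hairpins were found in the GENCODE vM21 coding transcripts (GRCm38, the mm10 build) as a C, 5 bases, CAGTGN, and 5 bases that pair with the first 5, G with T allowed, on the strand of the transcript alone. Capitals mark the bulged C and the loop CAGTGN, and the DNA letter T stands for U.
Fth1: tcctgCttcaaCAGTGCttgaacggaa
Ftl1: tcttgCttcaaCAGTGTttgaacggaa
Slc40a1: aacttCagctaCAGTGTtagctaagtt
Tfrc 1: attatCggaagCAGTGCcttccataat
Tfrc 2: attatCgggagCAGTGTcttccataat
Tfrc 3: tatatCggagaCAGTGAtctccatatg
Tfrc 4: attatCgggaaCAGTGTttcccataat
The Fth1 element lies in the 5′ UTR at chr19:9982733-9982759 on the plus strand, and the Ftl1 element in the 5′ UTR at chr7:45459780-45459806 on the minus strand. The Slc40a1 element lies in the 5′ UTR of Slc40a1-201 at chr1:45925466-45925492 on the minus strand. The 4 elements found in Tfrc lie in the 3′ UTR of Tfrc-201 on the plus strand, at chr16:32631220-32631246, chr16:32631599-32631625, chr16:32631664-32631690 and chr16:32631711-32631737. Fth1 and Ftl1 differ in 2 of the 27 bases, whereas Fth1 and Slc40a1 differ in 14. The first and second elements of Tfrc also differ in 2 bases. With these letters, 4 of the 10 members and 294 of 21901 protein-coding genes, or 1.34%, had a match anywhere in a coding transcript. Because the list was made of iron genes by name, these shares are not a test. They describe the annotation and not the libraries. No match was found in the other 6 members, which says only that these letters do not occur in their vM21 transcripts. An element with another loop, or with a break in the 5 paired bases, would be missed in any member, Tfrc included. All 7 elements lay inside the extent of the assembled locus in M and in MR, although the tables give no reads for the elements themselves.

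The values are given as TPM (transcripts per 1000000), which are per transcript length and are meant for comparison between genes. For some members the listed coverage gave another order, so that ratios between genes depend on the column. A ratio is the log2 of MR over M after adding 1 to each TPM, and the interval beside it is a 95% counting interval from the approximate number of read pairs behind each value. It covers counting error only, and how far repeated cultures would differ is not known. A log2 ratio above 1 or below -1 was used to sort genes by size. Of the 10 members, 3 lay above 1 (Tfrc, Steap4 and Ncoa4), 4 lay below -1 (Slc11a1, Slc40a1, Fth1 and Ftl1) and 3 lay between (Slc11a2, Steap3 and Ireb2). As a background, 21.3% of the 13449 genes with an own locus and 1 TPM or more in either library lay above 1, and 13.2% below -1. All 10 members reached a TPM of 10, and among the 8673 genes that did so 18.4% lay above 1 and 11.3% below -1. The members therefore held genes of both directions, and with 10 genes these counts are a description. The median log2 ratio of the members was -0.17, beside 0.21 over the 13449 genes, whose quartiles were -0.42 and 0.84. The member median includes Steap4, at 0 TPM in M, and is the midpoint of Steap3 at -0.77 and Ireb2 at 0.43. When the libraries were scaled by the median of ratios over 11854 genes, the median of all genes moved to 0.02 and that of the members to -0.36, and the member counts on either side were still 3 and 4. At a log2 ratio of 2 the members counted 2 above (Tfrc and Steap4) and 1 below (Slc40a1), beside 7.11% and 3.87% of the 13449 genes.

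**Figure D1:**
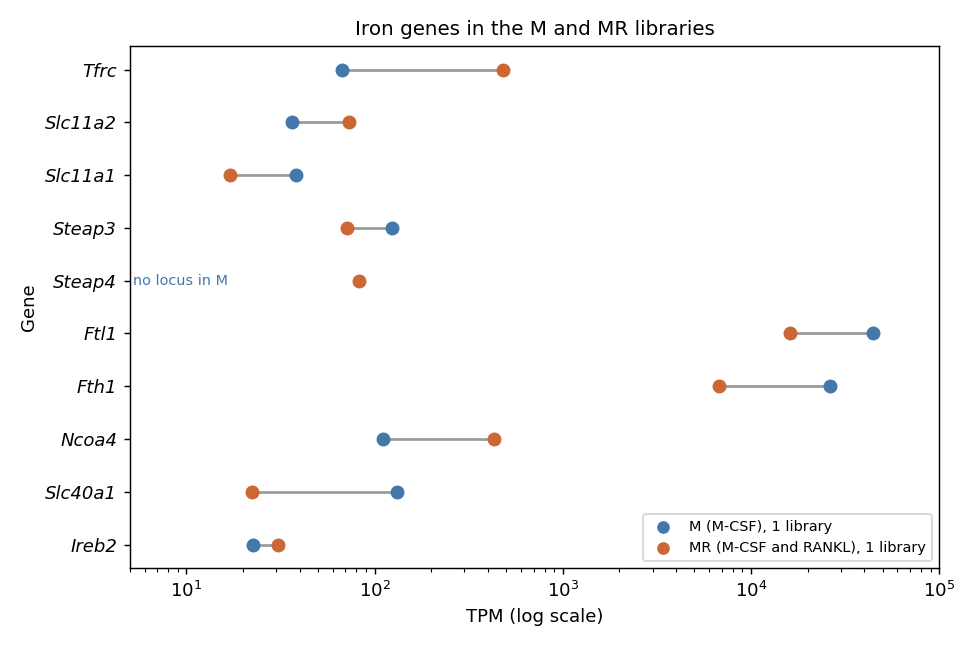
TPM (log axis) of the 10 genes in the M library (blue) and the MR library (orange), 1 library each, with a grey line joining the values of a gene. Ftl1 and Fth1 lie far to the right of the other members in both libraries, Tfrc and Ncoa4 lie to the right in MR, Slc40a1 lies to the left in MR, and Steap4 had no locus in M.

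Tfrc, the transferrin receptor that brings iron into the cell, had the largest positive log2 ratio among the 9 members with a locus in both libraries. Its TPM was 66.9 in M and 479 in MR, or 7.16 times as high, from about 1830 and 10332 read pairs. The log2 ratio was 2.82 (counting interval 2.75 to 2.89), and the gene moved from rank 2184 to rank 326 by TPM. Tfrc lies on the plus strand at chr16:32608920-32632794, and its locus covered 99.4% of the annotated exon bases in M and 99.2% in MR, with 5′ ends 16 bases and 3′ ends 8 bases apart. The coverage that the authors listed for the locus differed less than the TPM, with 104 in M and 340 in MR, and the log2 ratio from coverage per aligned Gb was 1.96. The coverage corresponding to the FPKM would be 112 in M and 634 in MR, and the difference between both columns was not traced further. The gene was thus higher in MR by either column, by a size that depended on the column.

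The endosomal transporters differed from each other. Slc11a2 (DMT1), which carries ferrous iron out of the endosome, had 36.6 TPM in M and 72.8 in MR, from about 620 and 972 read pairs. Its log2 ratio of 0.97 (0.83 to 1.12) lay at the threshold and was 1.18 from coverage per aligned Gb and 1.03 when entries with gene names were added. Slc11a1 (NRAMP1), a related metal transporter of the phagosome of macrophages, had 38.0 TPM in M and 17.2 in MR, from about 493 and 175 read pairs. Its log2 ratio was -1.10, with a counting interval of -1.35 to -0.86 that includes the threshold. In M the pair stood at nearly the same level, with 0.963 Slc11a2 transcripts per Slc11a1 transcript. In MR the level of Slc11a2 was 4.24 times that of Slc11a1. By the listed coverage these ratios were 0.756 in M and 5.86 in MR. Slc11a2 lies at chr15:100387898-100425072 on the minus strand, and both ends of its locus lay within 42 bases of the ends of Slc11a2-201 in both libraries. Slc11a1 lies at chr1:74375195-74386062 on the plus strand, where a second, small locus added 0.456 TPM in M and 0.132 in MR.

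The metalloreductases were Steap3, known as the endosomal ferrireductase of the transferrin cycle, and Steap4, a family member at the plasma membrane and in endosomes. Steap4 had no locus in M, where it is listed at 0, and had 83.0 TPM in MR from about 1157 read pairs. Its log2 ratio of 6.39 rests on the 1 added to 0 TPM and was used for the member counts and median alone. Steap4 lies at chr5:7960457-7982213 on the plus strand, and the MR locus covered 97.4% of its exon bases. Steap3 had 123 TPM in M and 71.6 in MR, from about 1981 and 908 read pairs, and its log2 ratio was -0.77 (-0.89 to -0.66). A culture with M-CSF alone thus had Steap3 without an assembled Steap4, whereas MR had 0.862 Steap3 transcripts per Steap4 transcript by TPM and 0.258 by the listed coverage.

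The extent of the Steap3 locus differed more between the libraries than that of any other member with a locus in both. Steap3 lies at chr1:120190757-120272705 on the minus strand. In M the locus extended from 120226430 to 120265277, covered 47.9% of the exon bases and ended 7 bases from the 3′ end of the annotated transcript Steap3-202. In MR it extended from 120190544 to 120265453, covered 85.0% of the exon bases and ended 213 bases from the 3′ end of Steap3-205. The 3′ ends were therefore 35886 bases apart, and the 5′ ends 176 bases. The coverage listed for Steap3 was 190 (M) and 28.4 (MR), and the log2 ratio from coverage per aligned Gb was -2.34, below the threshold that the TPM did not reach. Its FPKM would correspond to a coverage of 207 and 94.9. Steap3 was lower in MR by either column, and its size could not be fixed from these tables, which give no reads per exon or isoform.

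**Figure D2:**
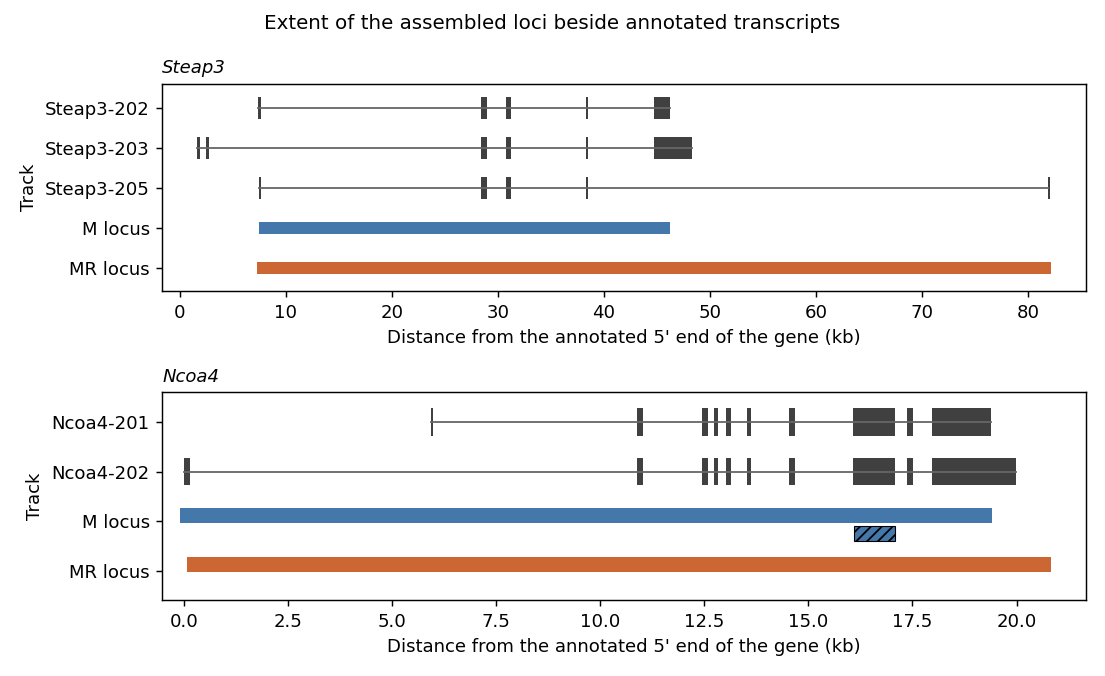
Extent of the loci given to Steap3 and Ncoa4 in M (blue) and MR (orange) below annotated transcripts (black boxes are exons, very short ones drawn at a minimum width), in kb from the annotated 5′ end of the gene. The Steap3 locus runs on past Steap3-202 to the end of Steap3-205 in MR, and M has a locus on the other strand (hatched) inside an exon of Ncoa4; the bars show outer ends and not read density.

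Ferritin was the most abundant item of the list. Ftl1, the light chain that helps the iron core to form, had 44296 TPM in M and 16111 in MR, and held rank 1 in both libraries. Fth1, the heavy chain that oxidizes iron on entry, had 26369 TPM in M and 6737 in MR, rank 2 and rank 5. Both chains were lower in MR, with log2 ratios of -1.46 (-1.47 to -1.45) for Ftl1 and -1.97 (-1.99 to -1.95) for Fth1. The narrow intervals come from about 240005 and 68850 read pairs for Ftl1 and 137117 and 27632 for Fth1. Together the chains made up 7.07% of the TPM of M and 2.28% of that of MR. Because the chains differed unequally, the number of Ftl1 transcripts per Fth1 transcript was 1.68 in M and 2.39 in MR. Set against the receptor, there were 1057 ferritin transcripts per Tfrc transcript in M and 47.7 in MR by TPM, and 1131 and 88.5 by the listed coverage. Fth1 lies at chr19:9980598-9985098 on the plus strand and Ftl1 at chr7:45457944-45459884 on the minus strand.

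Ferritin genes have processed copies that can share reads with them. Genes annotated as pseudogenes or named as such, with at least 80% identity over at least 300 bases, numbered 3 for Fth1 and 19 for Ftl1. None of the Fth1 copies had a locus. Of the Ftl1 copies, 3 had one. Ftl1-ps1, 99.6% identical over 910 bases, had 454 TPM in M and 202 in MR. Ftl2-ps had 140 TPM in M and Ftl1-ps2 had 15.1 TPM, and neither had a locus in MR. These copies together came to 1.37% of the Ftl1 value in M and 1.25% in MR, and adding them to Ftl1 left its log2 ratio at -1.46. How the aligner divided reads between the copies is not given in the sources used here.

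Ncoa4, the receptor that takes ferritin to the lysosome, was higher in MR. Its locus had 111 TPM in M and 433 in MR, or 3.90 times as much, from about 2079 and 6393 read pairs, and a log2 ratio of 1.95 (1.88 to 2.02). Ncoa4 lies at chr14:32159865-32179855 on the plus strand. In M a further locus of 995 bases at chr14:32175954-32176948 lay wholly in exons of Ncoa4 but was placed on the minus strand, with 91.8 TPM, so that it was given to no gene. With that locus added, Ncoa4 had 203 TPM in M and the log2 ratio was 1.09, and from coverage per aligned Gb it was 1.33. The difference stayed above 1 with each change made alone, while its size moved by more than 1.5 times with the strand. Coverage with the locus on the other strand added was not run, so that the size of the Ncoa4 difference is not fixed by these values.

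Slc40a1 (ferroportin), the iron exporter, had the most negative log2 ratio of the list by TPM, whereas from coverage per aligned Gb Slc40a1 stood at -2.32 and Steap3 at -2.34. It had 132 TPM in M and 22.4 in MR, from about 2488 and 333 read pairs, a value 5.89 times higher in M, and a log2 ratio of -2.51 (-2.67 to -2.34). Its rank by TPM went from 1101 to 5616. Slc40a1 lies at chr1:45908068-45926523 on the minus strand, and the 5′ end of its locus lay 6 bases from the annotated start of Slc40a1-201 in M and 7 bases from it in MR. The 5′ UTR element printed above was within the locus of both libraries. In M there was about 1 Tfrc transcript for 2 of Slc40a1, with a ratio of 0.507, and in MR the ratio was 21.4. From the listed coverage these ratios were 0.533 and 11.4. Importer and exporter thus stood in opposite order in these libraries.

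Ireb2 encodes iron regulatory protein IRP2, which binds the hairpins. It had 22.5 TPM in M and 30.7 in MR, from about 726 and 782 read pairs, and a log2 ratio of 0.43 (0.29 to 0.58). The median of all genes, 0.21, lay just below this interval, and with the median-of-ratios scaling Ireb2 was at 0.25 and all genes at 0.02. Ireb2 lies at chr9:54863789-54912530 on the plus strand, and the 3′ end of its locus was at the same base in both libraries. It was the member that differed least between M and MR.

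By TPM, the members stood in M in the order Ftl1, Fth1, Slc40a1, Steap3, Ncoa4, Tfrc, Slc11a1, Slc11a2 and Ireb2, with Steap4 at 0. In MR the order was Ftl1, Fth1, Tfrc, Ncoa4, Steap4, Slc11a2, Steap3, Ireb2, Slc40a1 and Slc11a1. Slc11a1 and Slc11a2 in M, with 38.0 and 36.6 TPM, and Slc11a2 and Steap3 in MR, with 72.8 and 71.6 TPM, were neighbours that can hardly be ranked. The order also depended on how a gene was measured. With the locus on the other strand Ncoa4 had 203 TPM in M, above Slc40a1, whereas by the listed coverage it had 35.6, below Tfrc at 104. In MR the listed coverage put Steap3, at 28.4, below Ireb2, at 40.7. The spread between cultures, which would be needed to rank other neighbours, was not measured.

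**Figure D3:**
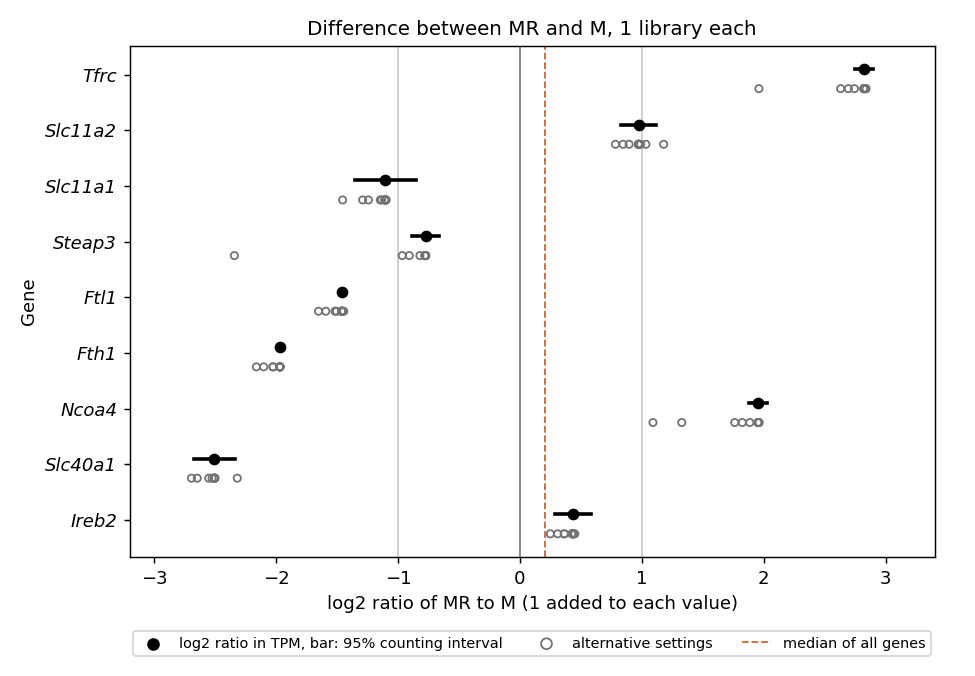
Log2 ratio of MR to M for the 9 members with a locus in both libraries (filled points, with the 95% counting interval as a bar where it is wider than the point) and under alternative settings (open circles); grey lines mark -1, 0 and 1. Tfrc and Ncoa4 lie above 1 and Slc40a1, Fth1 and Ftl1 below -1 at each setting, whereas Slc11a2 and Steap3 cross a line, and the outlying circles of Tfrc and Steap3 are the values from coverage.

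The other genes of iron and heme handling formed 9 lists of 82 genes, of which 68 had a value. Of these, 17 (25%) lay above 1 and 8 (11.8%) below -1, shares near the 21.3% and 13.2% of all genes, and their median log2 ratio was 0.27. With the median-of-ratios scaling the split was 13 to 12, beside 18.1% above 1 and 16.2% below -1 of all genes. It was 14 to 11 when mitochondrial genes and the 20 genes of highest TPM were left out. There 2666 of 13626 genes lay above 1 and 2174 below -1. The split thus depended on the scaling, in this list and over all genes alike. Iscu and Nfs1 were among the genes just above 1 that the median-of-ratios scaling placed below it, both at 0.88.

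The list of mitochondrial iron and Fe-S assembly had 10 of 16 measured genes above 1 and 1 below -1, with a median of 1.07, and 14 of the 16 were higher in MR. The share above 1 was 62.5%, beside 21.3% of all genes. Under the median-of-ratios scaling 6 of the 16 lay above 1, beside 18.1% of all genes. Fdxr, the reductase that feeds electrons into cluster assembly, had 6.73 TPM in M and 53.7 in MR (log2 ratio 2.82), and its partner ferredoxin Fdx1 had 13.1 and 38.5 TPM (1.48). The scaffold gene Iscu had 73.8 TPM in M and 157 in MR (1.07), and the cysteine desulfurase Nfs1, which supplies the sulfur, had 17.9 and 38.5 TPM (1.06). Genes of the later steps were also higher in MR. The chaperone Hspa9 had 130 TPM in M and 344 in MR (1.39), the glutaredoxin Glrx5 54.4 and 178 (1.69), Isca1 23.8 and 99.7 (2.02), and Bola3 21.1 and 79.5 (1.86). The gene of this list below -1 was Slc25a37 (mitoferrin 1), an importer of iron into mitochondria, at 39.5 TPM in M and 13.9 in MR (-1.45).

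The list of cytosolic Fe-S assembly had 1 of 8 genes above 1, Ciapin1, an electron carrier for this machinery, at 18.5 TPM in M and 48.2 in MR (1.33), and its median was 0.27. Heme synthesis had 1 of 8 measured genes above 1, Urod, a decarboxylase of the pathway, at 24.2 and 58.9 TPM (1.25), with a median of 0.44. In both lists the share above 1 was 12.5%, beside 21.3% of all genes. Alas2, the erythroid form of the first enzyme, had no locus. Heme breakdown, which frees iron from heme, had 2 of 4 genes below -1 and all 4 lower in MR, with a median of -1.01, where 13.2% of all genes lay below -1. Under the median-of-ratios scaling 3 of the 4 lay below -1, beside 16.2% of all genes. Blvra, at -0.57 by TPM, was at -2.72 from coverage per aligned Gb. Hmox1, the inducible heme oxygenase, had 565 TPM in M and 142 in MR (-1.98), and Blvrb, a biliverdin reductase, had 387 and 189 TPM (-1.03).

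Among other uptake genes, 3 of 13 (23.1%) lay above 1 and 2 (15.4%) below -1, near the 21.3% and 13.2% of all genes. Their median was -0.35. Slc46a1, a heme and folate carrier, had 5.69 TPM in M and 17.7 in MR (1.49), and transferrin itself, Trf, had 22.6 and 7.63 TPM (-1.45) at a locus shared with another gene. The second transferrin receptor gene, Tfr2, had no locus in either library. In the export list, 2 of 5 measured genes (40%) lay above 1, beside 21.3% of all genes, and the others lay between -1 and 1. One was Hephl1, at 0 in M and 1.47 TPM in MR, and the other was Ank, which is known as a transporter of pyrophosphate and ATP, at 14.1 and 305 TPM (4.34). From coverage per aligned Gb, Hephl1 was at 0.73, below the threshold. The ferroxidases that work with ferroportin were near the lower end of the scale, with Cp at 5.58 TPM in M and 4.80 in MR and Heph at 0.595 TPM in M and no locus in MR, and hepcidin (Hamp) had no locus.

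The regulation list had none of 10 measured genes above 1 and 3 below -1, with a median of -0.54, beside 21.3% and 13.2% of all genes. Aco1, the iron regulatory protein IRP1, had 34.4 TPM in M and 55.1 in MR (0.66), and Fbxl5, the ubiquitin ligase subunit that removes IRP2, had 22.0 and 28.6 TPM (0.37). The genes below -1 were Hfe, a partner of the transferrin receptor, at 37.0 and 13.6 TPM (-1.39), Epas1, the transcription factor HIF-2α, at 12.3 and 4.66 TPM (-1.23), and Nfe2l2, a regulator of ferritin and heme oxygenase genes, at 170 and 71.6 TPM (-1.24). From coverage per aligned Gb, Atg5 and Atg7 also lay below -1, at -1.89 and -3.29, whereas by TPM they were at 0.38 and -0.80. The counts of this list thus depended on the column. Of the reduction list, 1 of 4 genes was measured, and it lay between -1 and 1. The 3 measured genes of the chaperone and storage list also lay between, with a median of 0.11. Pcbp1, an iron chaperone that loads ferritin, had a locus on the strand opposite to its annotation alone and was given no value.

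**Figure D4:**
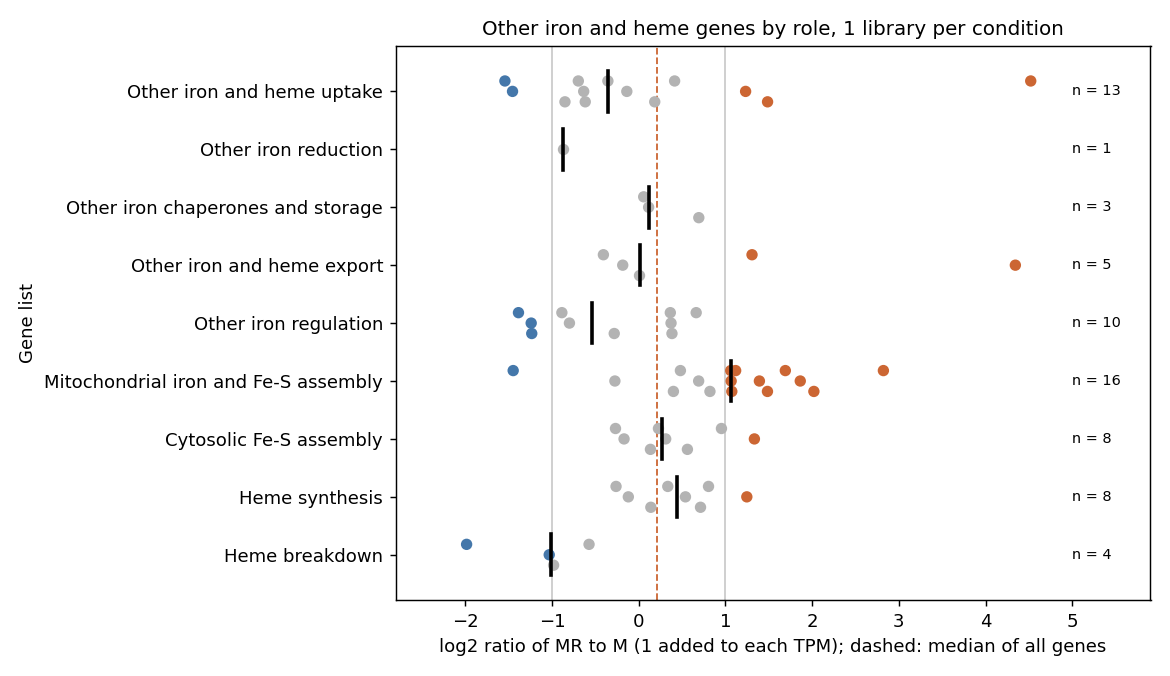
Log2 ratio of MR to M of the other iron and heme genes, 1 point per gene, by list, with the median of each list as a black bar; orange points lie above 1, blue points below -1, and grey points between. The list of mitochondrial iron and Fe-S assembly has its median at 1.07, and all 4 genes of heme breakdown lie to the left of 0.

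The labels give bone marrow cells, and markers of some cell types also differed between M and MR. As a background for the marker counts, 21.3% of all genes lay above 1 and 13.2% below -1. All 10 osteoclast markers lay above 1, with summed levels of 126 TPM in M and 25157 in MR. Acp5 had 51.9 and 4947 TPM, Ctsk had 53.1 and 12867 TPM, and Calcr, Dcstamp, Ocstamp, Oscar and Car2 had no locus in M. Of 8 macrophage markers, 4 lay below -1 and the sums were 20403 and 7918 TPM, or 4368 and 3383 TPM without Lyz2, which lies at a shared locus, while Csf1r, the receptor of M-CSF, had 697 and 872 TPM. Of 12 proliferation genes, 11 were lower in MR and 4 lay below -1, with sums of 829 and 308 TPM, of which Pcna alone held 518 and 121. The part of these shifts in the values of the iron genes was not tested. Erythroid cells, which use much iron, were nearly absent by their markers. The 10 erythroid genes reached at most 3.06 TPM, with sums of 11.5 in M and 6.14 in MR, and 5 of them, Hbb-bt, Klf1, Slc4a1 and Epb42 among these, had no locus. The 9 neutrophil markers summed to 1387 and 968 TPM, the 6 lymphoid markers to 20.5 and 16.9, and the 6 stromal markers to 22.4 and 35.2. Of 10 housekeeping genes, 2 lay above 1 and none below -1, with a median of 0.23, although Hprt and B2m lay at -1.11 and -1.01 under the median-of-ratios scaling.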

How the data were processed

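Per the labels and the methods of the study, the authors sequenced paired reads of 150 bases, removed adaptors with Trim Galore, aligned to mm10 with HISAT2 and ran StringTie on GENCODE vM27. The deposited tables hold coverage (a read depth signal per base), FPKM and TPM. The authors' TPM values are handled as a score, because assembled loci alone sum to 1000000 and entries with gene names add 87234 in M and 129264 in MR. Those entries hold positions of another build, GRCm39, and were set aside.

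Each of the 19422 loci of M and 19922 of MR was assigned on its strand to the GENCODE vM21 gene of which it held the largest number of exon bases, with a minimum of 50. These genes held 95.4% and 96.9% of the TPM. TPM was summed per gene, and a gene without a locus was set to 0. A locus was called shared where it also held 50% or more of the exon bases of a second coding gene. Aligned bases, estimated from the modal quotient of coverage and FPKM, were 3.63 Gb in M and 2.98 Gb in MR. Read pairs are FPKM times aligned bases and transcript length, at 300 bases per pair, and intervals (Wilson, 95%) cover counting error only. The lowest 5% of loci lay under 0.148 TPM in M and 0.239 in MR. Read counts are not listed, so no count test was run.

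The members and lists were chosen with earlier results of these data known. Named genes are all members, other iron genes with at least 10 TPM and a log2 ratio past 1 in either direction, the genes Aco1, Fbxl5, Hmox1, Slc25a37, Heph, Cp, Hamp, Trf, Tfr2 and Pcbp1, ferritin pseudogenes with a locus, and the markers Acp5, Ctsk, Csf1r and those at 0. Hephl1, Atg5, Atg7, Blvra and Pcna were named after their values were seen. Some genes that this rule names are counted in their lists but not reported here by name. Alternatives were a pseudocount of 0.1, no filter, 10 TPM, FPKM, other scalings, the highest locus, 200 exon bases, a threshold of 2 and ferritin copies added. Coverage, either strand and entries with gene names were added after the data were seen. The assignment was tested on simulated loci, drawn from annotated transcripts on their own strand with slightly shortened ends. Loci on the opposite strand, loci of a different extent and reads shared with pseudogenes were not simulated. Python 3.11.15, numpy 2.4.6, pandas 2.3.3, scipy 1.17.1, matplotlib 3.10.9 and blastn 2.17.0 were used.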

Additional observations from a re-analysis of the deposited data

Results flagged for a closer look

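The entries that were set aside, and loci on the strand opposite to a gene, held signal where members or related genes lie. The entry named Gm26769, which overlaps Tfrc on its strand by the listed positions, had 63.0 TPM in M and 455 in MR, beside 66.9 and 479 for Tfrc. Smbd1, listed over Tfrc on the other strand, had 3.54 and 31.1 TPM. Chat, listed over Ncoa4 on the other strand, had 4.84 and 10.8 TPM. These positions refer to another genome build than the reads, so that the names are not read as expression of those genes. The locus on the strand opposite to Pcbp1 had 254 TPM in M and 378 in MR. These values were higher in MR than in M, the library without RANKL, while other entries set aside were lower in MR, with Cyth2, listed over Ftl1, at 2467 TPM in M and 1065 in MR and Pnkd, listed over Slc11a1, at 8.52 and 3.52. None of these differences was tested.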

How the results depend on the processing

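The direction of each of the 9 member ratios was the same under all alternatives run, and 0 of 218 values reversed. However, 39 of the 218 values moved, among them 26 of 99 member ratios, which fell outside their counting interval. The 218 values are counts, shares, medians and member ratios, without ratios of single genes of the other iron lists. Among such genes, Atg5 was at 0.38 by TPM and at -1.89 from coverage per aligned Gb. The members counted 3 above 1 and 4 below -1 under the alternatives run except a threshold of 2, which left 2 and 1, coverage per aligned Gb, which gave 4 and 5, and the addition of entries with gene names, which gave 4 and 4. From coverage per aligned Gb, 2110 of 13449 genes lay above 1 and 1358 below -1. With entries with gene names added, no count over all genes was run. A threshold of 2 left 4 and 0 genes of the other iron lists, and 956 and 520 of all genes. Requiring 10 TPM left 1599 and 981 of all genes, in place of 2858 and 1781. Fewer genes are tested or reach the threshold there by construction. Member ratios ranged from 1.96 to 2.84 for Tfrc, 1.09 to 1.96 for Ncoa4, 0.78 to 1.18 for Slc11a2, 0.25 to 0.45 for Ireb2, -2.34 to -0.77 for Steap3, -1.45 to -1.10 for Slc11a1, -1.65 to -1.44 for Ftl1, -2.16 to -1.97 for Fth1 and -2.69 to -2.32 for Slc40a1. The causes were not tested. No paired analysis was possible because each condition had 1 library, and for the same reason no replicate could be left out. The tables give neither read counts nor reads per isoform, and mRNA levels do not give protein or iron content.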
